A study of Solanum lycopersicum with 24 samples.

Results

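Within the tomato mutant slful, the floral and inflorescence meristem stage (FIM) was compared with the transition meristem (TM) that precedes it, gene by gene. The comparison takes the 3 slful FIM and the 3 slful TM libraries out of 24 in the series, and all genes enter it: 34075 were listed and 18196 passed the filter on low values and were tested. The deposited legend spells the slful genotype ful1/ful2/mbp10/mbp20, from the FRUITFULL-like MADS-box genes FUL1, FUL2, MBP10 and MBP20. The sources used here give neither the kind of mutation nor the cultivar. The slful TM group is the shoot meristem of these plants while it switches to flowering, and the slful FIM group is the flower meristem together with the inflorescence meristem beside it. The same stages of wild-type plants (WT TM and WT FIM, 3 libraries each) were used to show where slful differs. All plants stood in an ordinary greenhouse, and each library was made from meristems pooled over many plants and labelled a biological replicate. RNA of the whole dissected sample was sequenced, so fewer cells of a type and less RNA per cell cannot be told apart in any result below.

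When a tomato shoot flowers, its growing tip passes through a transition stage and then ends as a flower, while a new inflorescence meristem arises at its flank and continues the truss. FRUITFULL-like MADS-box proteins promote this switch and shape the inflorescence. Flower identity depends on FALSIFLORA, the tomato relative of LEAFY, and on the F-box protein ANANTHA, whose activity is held back until the right time by TMF and its BOP partners, while SEPALLATA-type MADS-box proteins join the other floral MADS-box proteins in building organs.

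Expression was given in RPKM, read counts scaled to gene length and library depth, so levels of different genes can be compared. A change is the difference of mean log2(RPKM + 0.5), FIM minus TM, with its SE. The added 0.5 understates the change of low genes. Genes are called changed where limma gave a Benjamini-Hochberg adjusted p under 0.05 over all genes tested. The depth implied by the values, in mega reads, was 12.9 to 38.7 in the slful TM libraries, 15.5 to 30.1 in slful FIM and 31.6 to 90.4 in the WT libraries of these stages. One library stood apart, slful FIM replicate 1. Its correlation with the other slful FIM libraries was 0.961 to 0.974, and 6.38% of genes lay over 2-fold from the mean of the other FIM libraries, against 0.555% to 2.89% for the other 11 libraries of these stages. Its deviations also ran with gene length (Spearman rho of -0.53 across genes), and those of replicate 3 ran the other way (0.55). Such trends were not particular to slful FIM: in WT they ran from -0.50 (FIM replicate 2) to 0.44 (FIM replicate 1). On the log2 scale the median SD between replicates was 0.235 for slful FIM and 0.139 for slful TM, against 0.112 and 0.150 for WT FIM and WT TM. Each group therefore had its own weight in the fit.

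Between TM and FIM in slful, limma called 378 genes, which is 2.08% of those tested: 188 rose (1.03%) and 190 fell (1.04%). Of these, 120 rose and 119 fell by over 2-fold. Among all genes tested, the 3 FIM libraries lay wholly above the 3 TM libraries for 11% and wholly below for 16.3%. For all 378 called genes they lay on one side, which largely follows from calling these genes on the same libraries and is no further support. At an unadjusted p under 0.05 there were 3214 genes, 17.7%. The median change of all genes was -0.06. The number called rested on the FIM libraries: it was 1235 without slful FIM replicate 1 (6.79% of genes tested; 635 higher, 600 lower), 3 without replicate 2 (0.0165%; all lower) and 19 without replicate 3 (0.104%; 6 higher, 13 lower). It was 201 without slful TM replicate 2, 99 without slful TM replicate 3 and 587 without WT TM replicate 1, which enters through the shared estimate of spread. With the replicate number as a block, which treats samples of the same number as pairs, it was 99. All 378 genes were called again without FIM replicate 1. Since nearly all calls ended without FIM replicate 2 or 3, such a loss given below is not particular to the gene. It can come with hardly any shift in the change itself. Without FIM replicate 2 the change of EJ2 went from 2.45 to 2.38, while its adjusted p went from 0.00849 to 0.339. Solyc03g116650, with 0 reads in every FIM library, kept its change of -3.25, yet its adjusted p went from 0.000108 to 0.0256. Taken on the recovered reads with voom, 192 genes rose and 125 fell, so 60.6% of the calls were upward against 49.7% here.

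**Figure D1:**
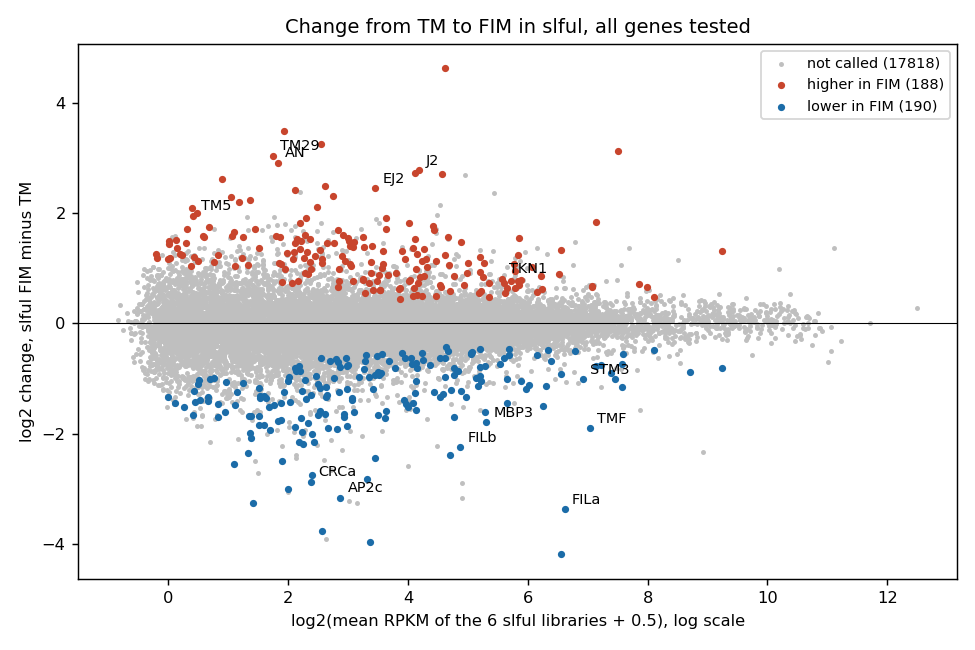
Change from TM to FIM in slful (vertical axis, log2) against mean level over the 6 slful libraries (horizontal axis, log2 of RPKM + 0.5) for the 18196 genes tested, with the 188 called higher in red, the 190 called lower in blue and the rest in grey. Listed loci among the calls are named: TM29, AN, J2, EJ2 and TM5 lie at the top, and FILa, AP2c, CRCa, FILb and TMF at the bottom.

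The mutated FUL-like genes come first. A locus marked as listed carries a symbol from general knowledge that the deposited tables do not pair with its ID. FUL1 (Solyc06g069430, described as FRUITFULL-like MADS-box 1) stood at 8.52, 9.75 and 8.43 RPKM in the TM libraries of slful and at 11.5, 10.7 and 11.8 in FIM. The FIM libraries lay above the TM libraries, but the change of 0.33 (SE 0.22) gave adjusted p = 0.453; in WT the gene rose by 0.72 (SE 0.15, adjusted p = 0.0115). FUL2 (Solyc03g114830, listed) went from 15.1 to 17.9 RPKM in TM to 12.7 to 14.3 in FIM (-0.26, SE 0.20, adjusted p = 0.49). MBP20 (Solyc02g089210, described as a MADS box transcription factor) overlapped between the stages at 62.6 to 69.0 and 63.1 to 70.0 RPKM. In this group of 4 only MBP10 (Solyc02g065730, listed) was called, beside 2.08% of all genes tested. It went from 1.87, 2.56 and 1.92 RPKM in TM to 0.826, 0.522 and 0.944 in FIM, a fall by 1.05 (SE 0.20, adjusted p = 0.0208). That call rests on 116 reads in TM and 37 in FIM. It ended without FIM replicate 2 (0.536) or 3 (0.11), without TM replicate 2 (0.0606) or 3 (0.0613), with voom (0.0672), with the 6 slful libraries alone (0.053) and with all 24 libraries at 1 weight per group (0.0513). With the replicate number as a block it gave 0.117. All 4 genes thus had reads in the mutant at both stages.

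Among the SEPALLATA/AP1-like MADS-box genes, whose proteins work in floral organ identity and in tomato also in inflorescence form and the flower stalk, 4 of 7 rose and 0 fell, beside 1.03% of all genes tested that rose, and the median change over the list was 1.95 against -0.06 over all genes. TM29 (Solyc02g089200, described by that name) was at 0.31, 0.0621 and 0.187 RPKM in TM and at 2.70, 6.90 and 6.96 in FIM. Every FIM library was above every TM library, FIM replicate 1 being the lowest of its group, and the change was 3.05 (SE 0.39, adjusted p = 0.0042).

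J2 (Solyc12g038510, listed), which limits branching of the truss together with its relative EJ2, was at 3.14, 5.05 and 3.97 RPKM in TM and at 21.8, 36.4 and 35.3 in FIM. The groups were far apart, with a change of 2.78 (SE 0.35, adjusted p = 0.00359). EJ2 (Solyc03g114840, listed) varied least within TM, at 2.92, 2.82 and 2.88 RPKM, and reached 15.6, 19.9 and 18.6 in FIM, a change of 2.45 (SE 0.37, adjusted p = 0.00849). For TM5 (Solyc05g015750, listed), an early SEPALLATA gene of the inner organs, TM held 0, 0.0232 and 0.042 RPKM, which is 2 reads in all, and FIM held 0.699, 2.24 and 2.01 RPKM from 133 reads (1.95, SE 0.36, adjusted p = 0.0189). TM5 was thus near its detection limit in TM, and low but present in each FIM library.

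Of the other 3 members, macrocalyx (Solyc05g056620, MC in the list), which acts in sepal size and the truss, was the most abundant at 134, 120 and 108 RPKM in TM and 274, 241 and 244 in FIM. Its libraries did not overlap, and its change of 1.07 (SE 0.26) missed the threshold at adjusted p = 0.062. LIN (Solyc04g005320, listed), known for branching and flower number, behaved alike, from 26.9, 27.5 and 18.3 to 61.3, 67.5 and 53.0 RPKM (1.32, SE 0.33, adjusted p = 0.0651). Without FIM replicate 1 macrocalyx gave adjusted p = 0.0179 and LIN 0.0178, so that 6 of 7 members rose, beside 635 of 18196 genes in that setting. RIN (Solyc05g012020, listed), known from fruit ripening, was between 0.368 and 0.505 RPKM in TM and between 0.651 and 1.01 in FIM (0.52, SE 0.27, adjusted p = 0.33).

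Flower identity genes divided. AN (Solyc02g081670, listed, ANANTHA) was at 0, 0.453 and 0.443 RPKM in TM and at 2.65, 6.83 and 7.90 in FIM. It rose by 2.92 (SE 0.54, adjusted p = 0.0189), and its lowest FIM library was again replicate 1. FA (Solyc03g118160, listed, FALSIFLORA) was already at 87.3, 139 and 139 RPKM in TM and at 133, 168 and 168 in FIM, with overlap between the groups (0.38, SE 0.21, adjusted p = 0.367). Another gene described as a MADS box transcription factor (Solyc01g093960) had 8 reads in all TM libraries and stood at 4.02, 8.17 and 7.41 RPKM in FIM, a change of 3.50 (SE 0.53, adjusted p = 0.00849). The described genes come from the authors' lists of slful versus WT differences, so their number is no measure of a group.

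The calls of TM29, J2, EJ2, TM5, AN and Solyc01g093960 all ended without FIM replicate 2 (adjusted p from 0.227 to 0.499) and without FIM replicate 3 (0.06 to 0.148). They all held without FIM replicate 1 (0.000141 to 0.00146). TM5 also ended without TM replicate 2 (0.0548) or 3 (0.0724), and AN without TM replicate 3 (0.0613) and with a pseudocount of 0.1 (0.0535). With the replicate number as a block EJ2 (0.0891), TM5 (0.118), AN (0.0927) and Solyc01g093960 (0.0925) were not called.

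**Figure D2:**
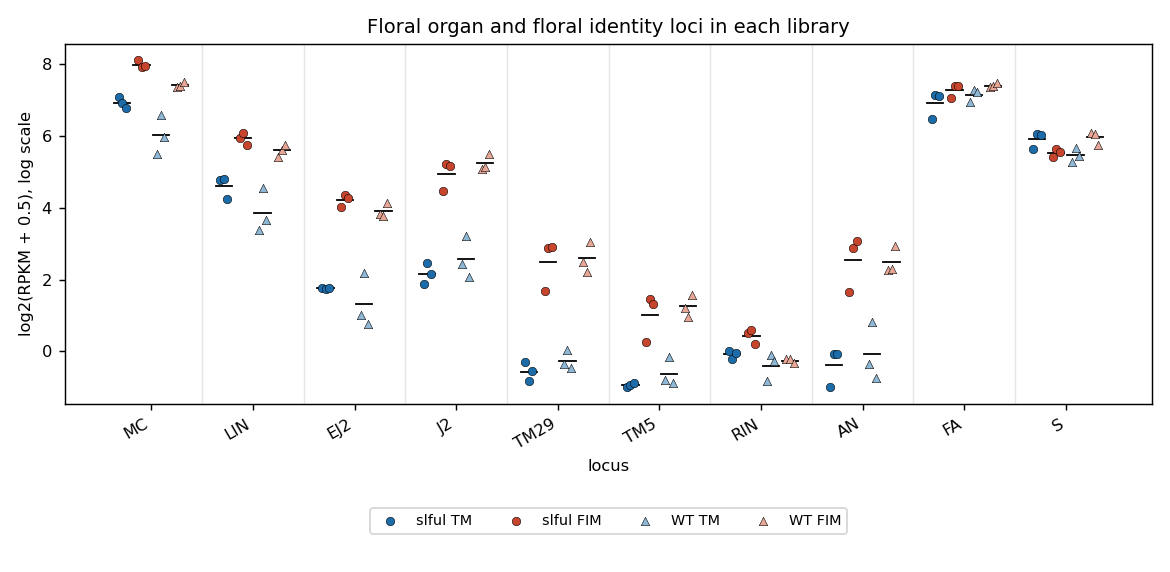
Level of 10 SEPALLATA/AP1-like and flower identity loci (horizontal axis) in each library, as log2(RPKM + 0.5) on the vertical axis; circles are slful, triangles WT, blue TM and red FIM, and each bar is the mean of 3 libraries. MC, LIN, EJ2, J2, TM29, TM5, RIN and AN lie higher in every slful FIM library than in every slful TM library, and FA overlaps. S has its slful FIM mean below slful TM while the WT means lie the other way.

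Organ identity genes bear on the label of the FIM samples: beside the early flower genes above, 3 of 4 B-class and 2 of 4 C- or D-class loci had too few reads to be tested. Of 4 loci listed as B-class MADS-box genes, which specify petals and stamens, TAP3 had 1 read in TM and 1 in FIM over all slful libraries, SlGLO1 had 5 and 0, and SlGLO2 had 3 and 4. The fourth, TM6 (Solyc02g084630), was at 19.5 to 27.0 RPKM in TM and 19.5 to 26.8 in FIM (-0.05, SE 0.16, adjusted p = 0.888). Of the C- and D-class loci, which act in stamens, carpels and ovules, TAGL1 and TAGL11 had 0 reads in all 6 libraries. Tomato AGAMOUS 1 (Solyc02g071730, TAG1 in the list) overlapped, with 4.15, 4.11 and 4.72 RPKM in TM and 6.27, 4.54 and 2.04 in FIM (adjusted p = 0.912). MBP3 (Solyc06g064840, listed) fell, from 54.7, 70.2 and 57.3 RPKM to 22.5, 16.2 and 13.6, by 1.79 (SE 0.26, adjusted p = 0.00783). This D-class-like gene was thus at its lower level in the stage where flowers form, with no overlap. Its call ended without FIM replicate 2 (0.287) or 3 (0.0979).

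Downward calls were most frequent among the lists in the YABBY family, transcription factors of the lower (abaxial) side of leaves and floral organs. Of 8 loci 7 were tested, 5 fell and 0 rose, beside 1.04% of all genes tested that fell, with a median change of -2.05 against -0.06 over all genes. INO had 0 reads. FILa (Solyc01g091010, listed) was at 198, 136 and 200 RPKM in TM and at 12.3, 16.1 and 23 in FIM. Its change of -3.37 (SE 0.24, adjusted p = 7.07e-05) held under all 24 alternatives run, at adjusted p of at most 0.0108. FILb (Solyc08g079100, listed) went from 48.4, 37.7 and 56.9 to 6.90, 10.1 and 12.4 RPKM (-2.24, SE 0.25, adjusted p = 0.00175). Both FIL loci were lower in each FIM library than in any TM library, without overlap.

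YAB5a (Solyc07g008180, listed) fell by 1.61 (SE 0.27, adjusted p = 0.0126) from a TM mean of 57.9 ± 11.6 RPKM (SD, n = 3) to 18.6 ± 4.35. YAB2a (Solyc06g073920, listed) fell by 1.75 (SE 0.29, adjusted p = 0.0118) from 5.14 ± 1.28 to 1.18 ± 0.436. CRCa (Solyc01g010240, listed; a relative of the carpel and nectary gene CRABS CLAW) fell from 12.4, 5.32 and 8.12 RPKM to 0.103, 1.69 and 0.744 (-2.87, SE 0.50, adjusted p = 0.0155). FAS (Solyc11g071810, listed) was at 4.86 to 10.3 RPKM in TM and 1.01 to 1.65 in FIM, with -2.05 (SE 0.49) and adjusted p = 0.0555. CRABS CLAW b (Solyc05g012050) had 35 reads in TM and 3 in FIM (adjusted p = 0.122). Without FIM replicate 1 FAS passed (0.0171), giving 6 of 7, beside 600 of 18196 genes that fell in that setting. Without FIM replicate 2 FILb, YAB5a, YAB2a and CRCa gave 0.126 to 0.352. Without FIM replicate 3 YAB5a gave 0.106, YAB2a 0.0803 and CRCa 0.109, and without TM replicate 3 these 3 gave 0.061, 0.0509 and 0.061. With voom CRCa (0.101) and YAB2a (0.0856) were also not called. With the replicate number as a block CRCa (0.101), YAB5a (0.0855) and YAB2a (0.0509) were not called.

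TMF and its partner BOP3 fell as well. TMF (Solyc09g090180, listed), an ALOG family protein that holds back flower formation, was at 256, 169 and 196 RPKM in TM and at 57.4, 43.2 and 64.5 in FIM. The groups were well separated, and the change was -1.90 (SE 0.21, adjusted p = 0.00175). BOP3 (Solyc10g079750, listed), a BLADE-ON-PETIOLE transcription cofactor that binds TMF, fell from 16.1, 9.54 and 11.4 to 2.51, 3.95 and 4.78 RPKM (-1.60, SE 0.29, adjusted p = 0.018). Its relatives did not pass: BOP1 (Solyc04g040220) was at 12.1 to 13.5 RPKM in TM and 13.0 to 15.9 in FIM (adjusted p = 0.629), and BOP2 (Solyc10g079460) at 9.08 to 14.6 and 5.66 to 8.33 (-0.67, SE 0.25, adjusted p = 0.196). The list of 7 floral identity loci thus had 1 that rose (AN) and 2 that fell (TMF and BOP3), beside 1.03% and 1.04% of all genes. TMF ended without FIM replicate 2 (0.186). BOP3 ended without FIM replicate 2 (0.372) or 3 (0.0994), without TM replicate 3 (0.0613), with voom (0.053) and with the replicate number as a block (0.0751).

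Several APETALA2-type genes, relatives of flowering repressors that are targets of miR172 in other plants, fell from the transition stage. APETALA2b (Solyc02g064960, described by that name and in no list) was at 24.6, 13.7 and 18.5 RPKM in TM and at 1.19, 0.347 and 0.736 in FIM. Its change was -3.97 (SE 0.42, adjusted p = 0.00134). APETALA2c (Solyc02g093150) went from 14.8, 10.7 and 12.4 to 1.39, 0.607 and 0.991 RPKM (-3.16, SE 0.42, adjusted p = 0.00447). For both genes the highest FIM library was replicate 1. AP2a (Solyc03g044300, listed), known from fruit ripening, was low throughout, at 0.594 to 1.33 RPKM in TM and at most 0.0956 in FIM (-1.33, SE 0.31, adjusted p = 0.0476).

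AP2d (Solyc11g072600, listed) lay the other way, at 12.2, 17.0 and 11.8 RPKM in TM and 17.5, 22.4 and 27.6 in FIM, with adjusted p = 0.0989. SBP-box genes, which promote phase change, were not called: CNR gave -0.71 (adjusted p = 0.121), SBP13 -0.53 (0.155), SBP15 -0.52 (0.0664) and SBP3 -0.82 (0.167). The SBP3 locus (Solyc10g009080) shows how replicate 1 entered, with 16.1 RPKM in FIM replicate 1 against 4.90 and 5.26 in the other FIM libraries and 12.2 to 14.6 in TM. The AP2 and SBP-box list of 7 thus had 2 that fell and 0 that rose, beside 1.04% and 1.03% of all genes, and without FIM replicate 1 it had 5 and 1, beside 600 and 635 of 18196 genes. Without FIM replicate 2 the 3 AP2 genes called gave 0.142 to 0.625. Without FIM replicate 3 APETALA2c gave 0.0627 and AP2a 0.19. AP2a also ended without any 1 slful TM library (0.0507 to 0.124) or WT FIM library (0.0554 to 0.0683), with a pseudocount of 1 (0.0642) and with voom (0.0907). With the replicate number as a block it gave 0.121.

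The largest fall among described genes was that of knox-like 1 (Solyc06g072480), named for a homeobox family of meristem maintenance and leaf form. Its libraries read 242, 122 and 168 RPKM in TM and 11.1, 8.87 and 7.05 in FIM. It fell by 4.19 (SE 0.28, adjusted p = 6.56e-05), and the call held under all 24 alternatives run. The 3 KNOX loci of the list moved less. TKN1 (Solyc04g077210, listed) rose from 32.9, 36.3 and 32.6 to 62.0, 55.9 and 61.9 RPKM (0.81, SE 0.12, adjusted p = 0.00853), ending without FIM replicate 2 (0.287) or 3 (0.0994). With the replicate number as a block it gave 0.0592. TKN2 (Solyc02g081120, listed), the tomato relative of SHOOT MERISTEMLESS, overlapped at 149 to 191 RPKM in TM and 171 to 242 in FIM (adjusted p = 0.468). LET12 (Solyc07g007120, listed) was at 29.9 to 35.4 and 20.8 to 28.3 RPKM (-0.42, SE 0.21, adjusted p = 0.324).

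**Figure D3:**
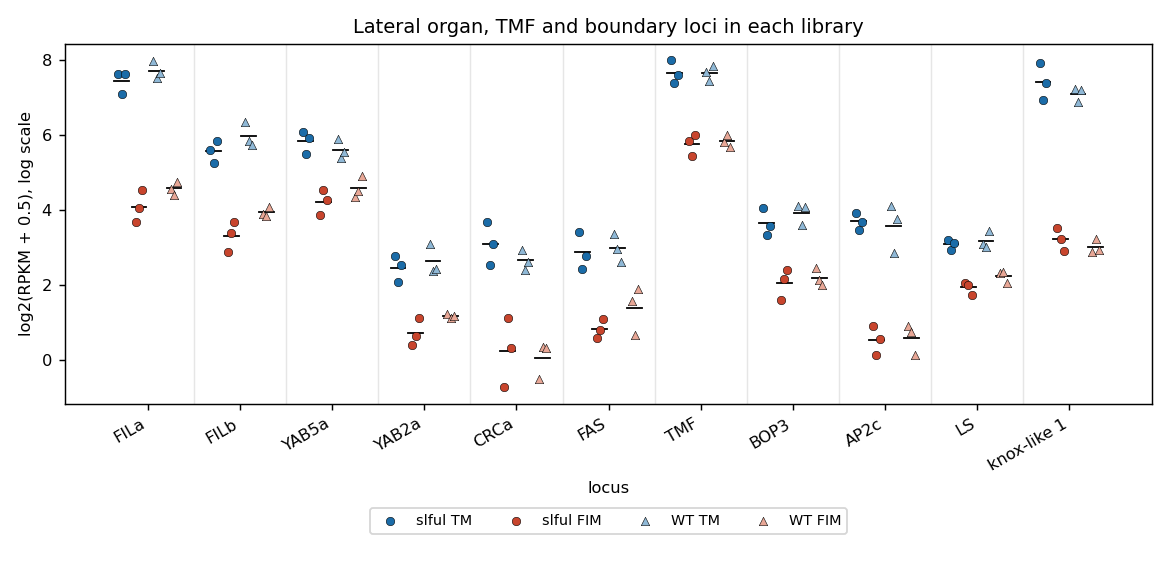
Level of 11 loci of the YABBY, TMF/BOP, AP2, boundary and KNOX families (horizontal axis) in each library, as log2(RPKM + 0.5) on the vertical axis; circles are slful, triangles WT, blue TM and red FIM, and each bar is the mean of 3 libraries. For all 11 loci, FAS included although it was not called, each slful FIM library lies below each slful TM library.

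SOC1- and SVP-like MADS-box genes, which set flowering time and in tomato the joint of the flower stalk, fell in 2 of 5 cases, beside 1.04% of all genes tested. STM3 (Solyc01g092950, described as MADS-box protein) was at 136, 161 and 182 RPKM in TM and at 118, 65.0 and 62.6 in FIM. FIM replicate 1 lay nearest to TM, and the fall by 1.01 (SE 0.21) gave adjusted p = 0.0344. MBP24 (Solyc01g105800, listed) fell from 27.7, 21.5 and 27.5 to 10.8, 7.25 and 6.95 RPKM (-1.58, SE 0.27, adjusted p = 0.0141).

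TM3 (Solyc01g093965, described as MADS-box transcription factor) overlapped because of 1 library: TM held 30.1, 34.0 and 39.4 RPKM and FIM 41.9, 24.1 and 23. Its change of -0.26 (SE 0.22, adjusted p = 0.534) became -0.53 (adjusted p = 0.0415) without FIM replicate 1. In WT, TM3 fell by 0.93 (SE 0.14, adjusted p = 0.00206), and the difference of the changes had an unadjusted p of 0.0228, or 0.884 adjusted. As a described gene TM3 is on the authors' lists of slful versus WT differences, so this unadjusted p is no separate support. MBP18 (Solyc03g006830) was at 11.3 to 16.4 RPKM in TM and 12.8 to 14.6 in FIM (adjusted p = 0.998). J (Solyc11g010570, listed, JOINTLESS) was at 207 to 250 and 242 to 318 RPKM (0.28, SE 0.16, adjusted p = 0.392). STM3 ended without FIM replicate 2 (0.564) or 3 (0.191) and TM replicate 2 (0.0881) or 3 (0.132), with the 6 slful libraries alone (0.0752), with median-ratio scaling (0.0597) and without the filter on low values. MBP24 ended without FIM replicate 2 (0.392) or 3 (0.127) and TM replicate 3 (0.0652). With the replicate number as a block STM3 gave 0.128 and MBP24 gave 0.0822.

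Florigen and its antagonist did not pass. SFT (Solyc03g063100, listed), the tomato florigen, was at 10.1, 14.2 and 11.8 RPKM in TM and 5.57, 5.78 and 4.98 in FIM. These libraries did not overlap, yet the change of -1.07 (SE 0.42) gave adjusted p = 0.216. SP (Solyc06g074350, listed), which keeps the shoot growing, was spread widely at 27.3, 13.9 and 8.42 RPKM in TM and 11.3, 4.44 and 2.52 in FIM (-1.44, SE 0.73, adjusted p = 0.322). SP5G, SP6A and SP9D, of the same family, had 0 reads in all 6 libraries.

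S (Solyc02g077390, listed, COMPOUND INFLORESCENCE), a WUSCHEL-type homeobox gene of truss branching, was at 49.1, 65.4 and 64.9 RPKM in TM and 41.7, 49.3 and 45.9 in FIM. The slful libraries overlapped by a narrow margin (-0.38, SE 0.19, adjusted p = 0.328). In WT the same locus rose by 0.49 (SE 0.13, adjusted p = 0.0348), from 38.4, 50.5 and 42.5 to 66.9, 66.0 and 52.8 RPKM. The difference of the 2 changes was -0.87 with an unadjusted p of 0.00273, which did not pass over all genes (adjusted p = 0.884).

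Stem cell genes gave 0 calls among 4 loci, beside 2.08% of all genes tested. WUS (Solyc02g083950) was at 23.3 to 32.1 RPKM in TM and 31.4 to 40.4 in FIM (0.42, SE 0.31, adjusted p = 0.486). CLV3 (Solyc11g071380), whose peptide restrains WUS, was at 29.9 to 42.2 RPKM in TM and 13.7 to 26.8 in FIM (-0.76, SE 0.32, adjusted p = 0.252). CLE9 and the receptor gene FAB gave adjusted p = 0.468 and 0.557. The meristem markers WUS, CLV3 and TKN2 were therefore read in every slful library at both stages.

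Boundary and axillary bud genes gave 1 call in 3 tested, beside 2.08% of all genes tested. LS (Solyc07g066250, listed, LATERAL SUPPRESSOR), a GRAS protein needed for side shoots, fell from 8.71, 7.12 and 8.23 to 3.67, 3.54 and 2.84 RPKM (-1.15, SE 0.19, adjusted p = 0.0126). BL (Solyc11g069030, BLIND) was at 30.4 to 45.9 RPKM in TM and 42.4 to 55.5 in FIM (adjusted p = 0.415), and GOB (Solyc07g062840, GOBLET) at 89.0 to 99.4 and 75.4 to 80.1 (-0.29, SE 0.13, adjusted p = 0.29). BRC1A had 1 read in each stage and BRC1B 15 and 3. LS ended without FIM replicate 2 (0.352) or 3 (0.127) and TM replicate 3 (0.0613), and with the replicate number as a block (0.108).

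Gibberellin genes gave 0 calls in 3 tested, beside 2.08% of all genes tested. GA20ox2 (Solyc06g035530, listed), a gibberellin synthesis enzyme, was at 5.58, 4.79 and 2.17 RPKM in TM and 10.9, 11.5 and 9.13 in FIM. The groups did not overlap, with a change of 1.31 (SE 0.36) at adjusted p = 0.0913 and 0.0273 without FIM replicate 1. GA20ox1 gave adjusted p = 0.774 and the DELLA repressor PRO 0.578, while GA20ox3, GA3ox1 and GA3ox2 had at most 9 reads in a stage.

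As markers of leaf tissue, 9 photosynthesis loci were read. Of these 0 were called in slful, beside 2.08% of all genes tested, and 6 fell in WT, beside 4.69%. Their summed level was 619 to 789 RPKM in the slful TM libraries and 522 to 639 in slful FIM, so that the stages overlapped. In WT the sum was 845 to 1553 in TM and 654 to 715 in FIM. A group of 7 genes was found by photosynthesis words in the descriptions and may share members with the first. It summed to 56.1 to 61.7 RPKM in slful TM and 27.6 to 39.1 in slful FIM. This sum lay wholly lower in FIM, although 0 of its genes were called. Terpenoid genes, typical of glandular hairs and also found by words, summed to 7.80 to 18.9 RPKM in TM and 4.45 to 16.6 in FIM, with 0 of 6 called. Both word groups come from the described genes, of which 41 of 364 tested were called. The part of leaf or hair tissue in the falls above was not tested.

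The genes with the largest rises among those with a description were, apart from TM29 and Solyc01g093960, a mixed set. The largest was Solyc03g070430, deposited as an unknown protein, at 0.469, 1.72 and 2.54 RPKM in TM and 36.1, 48.5 and 54.8 in FIM (4.63, SE 0.46, adjusted p = 0.000905). A RING/U-box superfamily gene (Solyc06g007230), of a family that attaches ubiquitin, went from 0.447, 0.547 and 0.809 to 12.2, 8.43 and 9.61 RPKM (3.26, SE 0.41, adjusted p = 0.00359). These FIM libraries were all many times above TM. A patatin gene (Solyc08g006860), of a lipid hydrolase family, rose by 2.71 (SE 0.52, adjusted p = 0.0218) from 5.73 ± 1.55 to 40.9 ± 14.7 RPKM (SD, n = 3). A tetraspanin (Solyc08g076850), a membrane protein, rose by 1.77 (SE 0.29, adjusted p = 0.0118), and the aquaporin plasma membrane intrinsic protein 2.1 (Solyc09g007770) by 1.91 (SE 0.37, adjusted p = 0.022).

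Further rises were those of Maternal effect embryo arrest 59 (Solyc06g006000; 2.32, SE 0.43, adjusted p = 0.018) and of 4 genes without known function. Solyc12g021327 had 0 reads in all TM libraries and 38 in FIM, and so was at least 4.02-fold higher, against 3 reads per library (adjusted p = 0.0107). Solyc02g065118 had 0 and 26 reads and was at least 3.05-fold higher (adjusted p = 0.0172). Its FIM libraries read 3.57, 0.906 and 0.917 RPKM, so the mean behind this bound leaned on replicate 1. Solyc01g109090 (2.30, adjusted p = 0.026) and Solyc02g020920 (2.21, adjusted p = 0.0118) rested on 8 and 6 reads in TM against 86 and 46. Solyc12g021327, Solyc02g065118 and Solyc01g109090 would not have passed the filter on low values without their slful FIM libraries. Their p-values are therefore no separate support for a rise. Among all 378 calls, 4 genes had 0 reads in every slful TM library and 1 had 0 in every slful FIM library. Without FIM replicate 2 none of these 10 described genes passed (0.11 to 0.471), and without FIM replicate 3 only Solyc03g070430 did (0.0234). TM replicate 3 decided 4 of them: Solyc08g006860 (0.0968 without it), Solyc09g007770 (0.0794), Solyc01g109090 (0.0733) and Solyc02g065118 (0.071). TM replicate 2 decided Solyc01g109090 (0.0558) and Solyc02g065118 (0.0517). With a pseudocount of 0.1 Solyc01g109090 gave 0.138 and Solyc02g020920 0.0807, and with voom Solyc01g109090 gave 0.105. With all 24 libraries at 1 weight per group Solyc06g006000 gave 0.09. With the replicate number as a block Solyc06g007230 (0.0592), Solyc08g006860 (0.12), Solyc08g076850 (0.0682) and Solyc02g065118 (0.0822) were not called.

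Of described genes that fell, besides those above, a Cytochrome P450 (Solyc01g108210) was at 12.9, 5.92 and 12.7 RPKM in TM and 0.351, 0.375 and 0.113 in FIM (-3.76, SE 0.38, adjusted p = 0.00108). A COBRA-like protein gene (Solyc03g114890), of a family that orients cellulose, fell by 2.15 (SE 0.36, adjusted p = 0.0118), and an Avr9/Cf-9 rapidly elicited gene (Solyc03g120930) fell by 1.85 (SE 0.24, adjusted p = 0.0042). Cytokinin oxidase6 (Solyc12g008900), which breaks down cytokinin, was at 9.40, 4.48 and 11.3 RPKM in TM and 1.37, 1.56 and 1.20 in FIM. It fell by 2.16 (SE 0.48, adjusted p = 0.0427), the only call among 5 genes with cytokinin words. Without FIM replicate 1 that group had 3 that fell, beside 600 of 18196 genes in that setting. Solyc12g040860, deposited as glucan endo-1,3-beta-glucosidase 12-like and of an enzyme family that degrades callose in the cell wall, fell from 3.98, 3.12 and 6.86 to 0.854, 0.79 and 0.725 RPKM (-1.93, SE 0.30, adjusted p = 0.00853). A further gene of this kind (Solyc06g076170) fell by 1.44 (SE 0.33, adjusted p = 0.047), making 2 of 9 cell wall genes tested. These word groups are drawn from the described genes, of which 41 of 364 were called, a larger share than the 2.08% of all genes.

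A zinc finger AN1 stress-associated gene (Solyc02g087210) fell by 1.90 (SE 0.31, adjusted p = 0.011), an alternative oxidase (Solyc08g075540), which bypasses part of the respiratory chain, fell by 1.51 (SE 0.28, adjusted p = 0.0199), and a calcium-binding protein gene (Solyc06g150132) fell by 1.49 (SE 0.33, adjusted p = 0.0421). Solyc08g075540 would not have passed the filter on low values without its slful TM libraries, so its p-value is no separate support for a fall. None of the 9 genes of the last paragraph and this one passed without FIM replicate 2 (0.11 to 0.663). Without FIM replicate 3 only Solyc01g108210 (0.0241) and Solyc03g120930 (0.0259) did. Solyc12g008900 (0.0958), Solyc06g076170 (0.103), Solyc06g150132 (0.0542) and Solyc08g075540 (0.0541) ended without TM replicate 1. Without TM replicate 3 Solyc12g008900 (0.143), Solyc06g076170 (0.147), Solyc06g150132 (0.13) and Solyc02g087210 (0.0535) ended, and without TM replicate 2 Solyc06g150132 (0.0865) and Solyc08g075540 (0.0502). With voom Solyc01g108210, Solyc03g114890, Solyc02g087210, Solyc12g008900, Solyc12g040860, Solyc06g076170 and Solyc06g150132 were not called. The weakest of these calls were those of Solyc12g008900, Solyc06g076170 and Solyc06g150132, which also ended with a pseudocount of 0.1 (0.101, 0.0564 and 0.0886) and when genes had to average 1 RPKM or more (0.0506, 0.0547 and 0.0547). Solyc12g008900 further ended without any 1 WT FIM library (0.0504 to 0.0569), Solyc06g076170 without WT FIM replicate 1 (0.0604) or 3 (0.0522), and Solyc06g150132 without WT TM replicate 2 (0.052). With all 24 libraries at 1 weight per group Solyc12g008900 gave 0.0845 and Solyc08g075540 gave 0.174. With the replicate number as a block Solyc02g087210 (0.075), Solyc03g114890 (0.112), Solyc06g076170 (0.145), Solyc06g150132 (0.145), Solyc08g075540 (0.0685) and Solyc12g008900 (0.0624) were not called. The groups found by words for flavonoid, stress, hormone and cell cycle genes held 0 calls among 1, 11, 10 and 3 tested, beside 41 of the 364 described genes tested.

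Genes with neither description nor list supplied some of the largest changes. Solyc09g014525 was at 31.7, 39.7 and 38.8 RPKM in TM and 368, 289 and 323 in FIM (3.14, SE 0.34, adjusted p = 0.00134; 0.126 without FIM replicate 2). Solyc03g006360 went from 2.23, 5.41 and 4.68 to 36.4, 31.5 and 20.6 RPKM (2.74, SE 0.51, adjusted p = 0.0189). Both rose in every FIM library. In the other direction, Solyc01g096120 was at 8.19, 5.18 and 6.41 RPKM in TM and 0.46, 0.364 and 0.289 in FIM (-3.01, SE 0.26, adjusted p = 0.000279; 0.0503 without FIM replicate 2). Solyc03g116650 had 93 reads in TM and 0 in FIM, so it was at least 8.65-fold lower against 3 reads per library (adjusted p = 0.000108), and this call held under all 24 alternatives run. Solyc03g006360 gave 0.462 without FIM replicate 2, 0.11 without FIM replicate 3 and 0.0613 without TM replicate 3.

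The same step was measured in WT, in other libraries. Both genotypes were fitted together with a shared variance per gene, so a gene of small spread is favoured in both lists of calls. In WT limma called 1597 genes (8.78%), 744 higher (4.09%) and 853 lower (4.69%), and 2483 with the replicate number as a block, which treats same-numbered samples as pairs. The WT count was 777 without WT TM replicate 1, 738 without WT TM replicate 3 and 790 without WT FIM replicate 3. The weight of the slful FIM group was 0.441 against 2.01 for WT FIM, and the median SE of a change was 0.187 in slful and 0.125 in WT, so the unequal counts say nothing of unequal change. Of the 188 genes that rose in slful, 140 also rose in WT (74.5% of the slful list and 18.8% of the WT list), and of the 190 that fell, 160 also fell in WT (84.2% and 18.8%). The WT change had the slful direction for 185 of 188 rising genes (98.4%) and 189 of 190 falling genes (99.5%), beside 47.2% of all tested genes above 0 and 52.8% below 0 in WT. No gene was called in opposite directions, 0 of 378.

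The genes called in slful had a median change of 1.17 in slful and 0.79 in WT when higher, and -1.20 and -0.83 when lower. Conversely, genes called in WT had medians of 0.74 in WT and 0.58 in slful when higher, and -0.67 and -0.57 when lower, so in each case the genotype that chose the genes showed the larger change. Across all 18196 genes the changes correlated with a Pearson r of 0.67, as a description only, since genes of a library are not independent. Among the lists, the WT step gave 6 of 7 SEPALLATA/AP1-like genes higher and 6 of 7 tested YABBY genes lower, beside 4.09% and 4.69% of all genes tested. The direct test of the difference between the steps called 0 genes with limma (smallest adjusted p 0.646), and 698 genes (3.84%) had an unadjusted p under 0.05. Other fits called up to 5 genes.

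**Figure D4:**
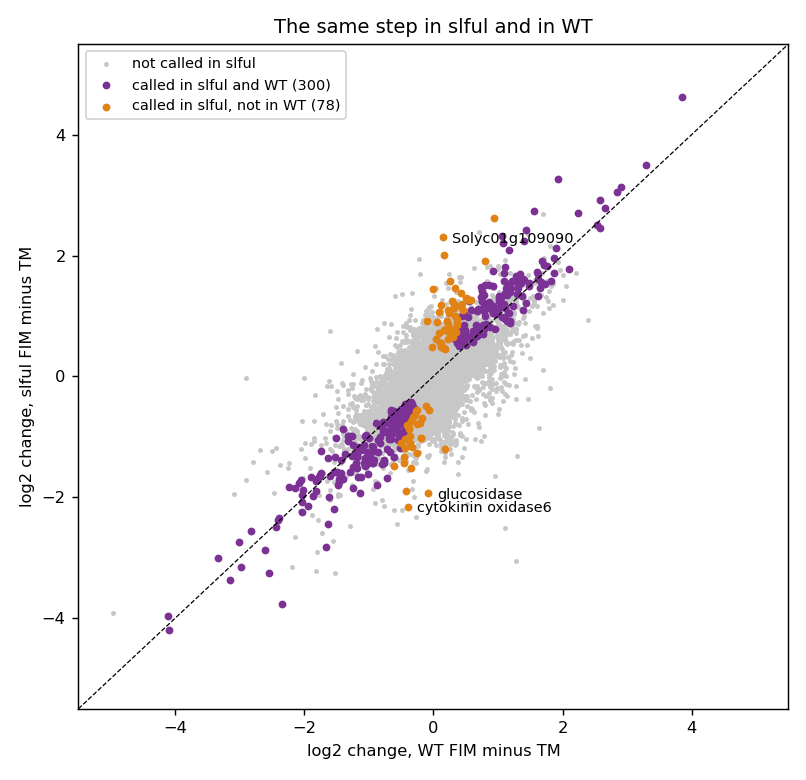
Change from TM to FIM in slful (vertical axis, log2) against the same change in WT (horizontal axis, log2) for the 18196 genes tested, with genes called in both genotypes in purple (300), called in slful alone in orange (78) and the others in grey; the dashed line marks equal change. Purple points lie on one side of 0 in both genotypes, some of them over 1 unit from the line (Solyc01g108210 at -3.76 in slful and -2.34 in WT); the named orange genes glucosidase (Solyc12g040860), cytokinin oxidase6 and Solyc01g109090 have WT changes of -0.08, -0.40 and 0.14 at low WT levels.

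Genes called in slful and not in WT were 48 higher and 30 lower. Some of them were at or below the pseudocount in WT, where log2(RPKM + 0.5) can hardly move, so their WT values are given as levels and the test of the difference is not used for them. The glucosidase Solyc12g040860 was at most 0.0511 RPKM in any WT TM library and at most 0.0183 in WT FIM. Solyc01g109090 was at most 0.545 RPKM in any WT library here, and the alternative oxidase Solyc08g075540 at most 0.329. These 3 genes passed the filter through slful, and a WT change cannot be read for them. Cytokinin oxidase6 was low in WT, at 0.279 to 1.57 RPKM in TM and 0.336 to 0.749 in FIM. The zinc finger gene Solyc02g087210 was well read in WT, at 5.58, 3.46 and 2.50 RPKM in TM and 2.59, 2.66 and 2.53 in FIM, a change of -0.43 (SE 0.20, adjusted p = 0.23). Its difference between the genotypes was -1.47 with an unadjusted p of 0.0017, which did not pass over all genes with limma (adjusted p = 0.884). The gene is described because it is on the authors' lists of slful versus WT differences in this series. Its small unadjusted p is therefore no separate support for a difference.

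**Figure D5:**
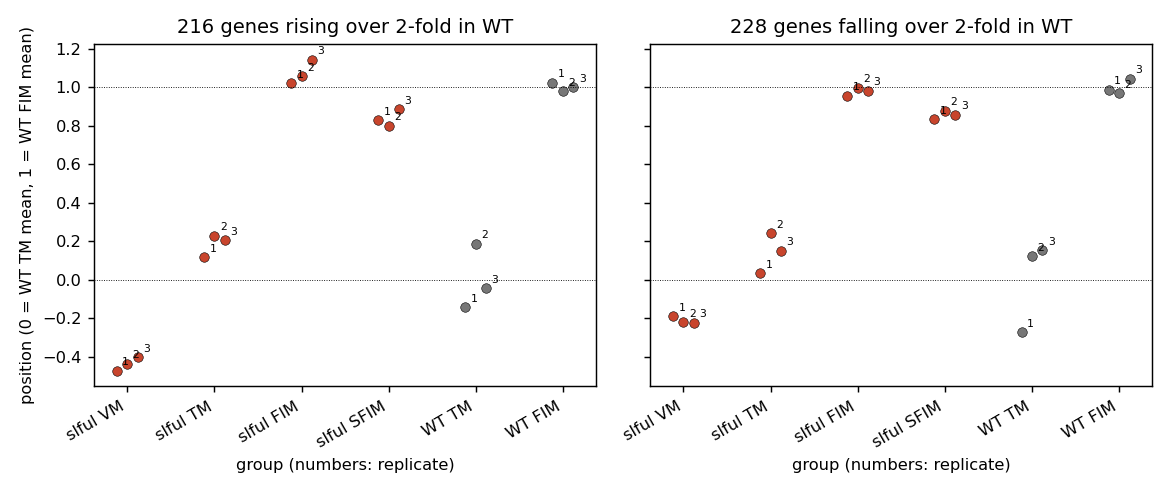
Position of each library (dots, replicate numbers beside them) on a scale where the WT TM mean is 0 and the WT FIM mean is 1 (vertical axis), for 216 genes rising and 228 genes falling over 2-fold in WT, by group (horizontal axis). The slful FIM libraries lie at 0.955 to 1.14, and the slful TM libraries at or below 0.242.

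How far slful moved along the WT step was read from 444 genes called in WT with changes over 2-fold, 216 rising and 228 falling, each library being placed between the WT TM mean (0) and the WT FIM mean (1). The WT means are 0 and 1 by construction. The slful TM libraries stood at 0.0686, 0.235 and 0.174, and the WT TM libraries scattered from -0.218 to 0.15. The slful FIM libraries stood at 0.983, 1.02 and 1.05, at the WT FIM mean, and replicate 1 was no exception here. For the rising genes slful FIM was at 1.02, 1.06 and 1.14, and for the falling genes at 0.955, 0.996 and 0.981. These are descriptions of the libraries, and no test was made.

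Libraries of other slful stages, which the calls did not use, were read for the same genes: the vegetative meristem (VM), before TM, and the sympodial FIM (SFIM, from the first side shoot to take over growth), after it, both deposited in another number format. Of the 188 genes that rose, 131 (69.7%) had all 3 SFIM libraries above all 3 VM libraries and 8 (4.26%) the reverse, beside 23.8% of all genes above. Of the 190 that fell, 168 (88.4%) had SFIM wholly below VM and 3 (1.58%) the reverse, beside 32.5% of all genes below. FILa was at 415 to 436 RPKM in VM and 20.1 to 25.1 in SFIM, and APETALA2b at 51.6 to 51.9 and 1.14 to 1.42, so both were higher still in VM than in TM. J2 was at 0.0335 to 0.203 RPKM in VM and 17.6 to 18.6 in SFIM, and AN at no more than 0.0481 and 2.04 to 3.62. AN and J2 were thus lower in SFIM than in slful FIM replicates 2 and 3, and TKN1 was higher, at 75.5 to 91.0 RPKM. Solyc03g070430 was at no more than 0.607 RPKM in VM and only 1.80 to 3.70 in SFIM, far below its level in FIM.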

How the data were processed

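The authors deposited RPKM values for 34075 genes, per the file headers; the aligner, genome build and strandedness are not given in the sources used here. From these values log2(RPKM + 0.5) was computed; the deposited table itself holds no log2 expression values. The test took genes that reached 0.5 RPKM in 3 or more of the 12 TM and FIM libraries and used limma 3.58.1 in R 4.3.3, 2-sided, with 1 mean and 1 weight per group and trended variances (residual df 8, prior df 4.15). The fit was also run on simulated data with independent noise scaled to the spread of each group. That noise held no deviant library and no length trend, so the run cannot tell how far the calls depend on single libraries. Reads were recovered from the RPKM steps with Python 3.11.15: all 24785 genes above 0 fell on whole reads (tolerance 0.02), giving the depths, the voom alternative and the limit that 0 reads allows (3 reads), which covers counting error only. RPKM divides by depth but not by library composition, and median-ratio scaling was an alternative.

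Members and lists were chosen with earlier results of these data known. The loci named were all members of 14 lists by ID, up to 4 called genes per description word group, the 12 largest called changes each way among described genes whose libraries do not overlap with at least 1 RPKM in the higher group, and 2 each way without description. Symbols of listed loci come from general knowledge, and 12 of 78 have a deposited description. Of the 78 symbols 56 stand in RefSeq's table (SLM_r2.1), all on the chromosome of the ID. Among 225 pairs of these on the same chromosome, 222 stood in the order of their IDs and the rest did not. Descriptions exist for 435 genes on the authors' own lists, 364 of them tested. Same-numbered WT samples deviated together (correlations 0.188, 0.339 and 0.197). In slful these correlations did not all pass 0.1. The labels give only the number, so pairing was not established in either genotype, and the main fit did not use it. Replicate labels do not tell separate plantings, so p-values measure the spread between these samples.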

Additional observations from a re-analysis of the deposited data

How the results depend on the processing

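Of the 46 named genes called in slful, 0 turned their direction in the 24 alternatives, and 3 kept their call in all of them (knox-like 1, FILa and Solyc03g116650); 46 kept it without slful FIM replicate 1, 3 without replicate 2 and 11 without replicate 3. The 378 calls became 1357 with equal weights over 12 libraries, 588 with 1 weight per group over 24 libraries, 3933 with equal weights over 24, 814 with the length trend removed, and 3 to 1235 without any 1 library. The 1597 WT calls became 689 with equal weights over 12 libraries, 2494 with the length trend removed, and 738 to 1942 without any 1 library. The 0 genes called for the genotype difference became 5 with equal weights over 24 libraries, 2 without the filter, and 0 to 1 without any 1 library. The cause of these shifts was not tested. With the replicate number as a block, slful gave 99 calls (55 higher, 44 lower; 89 of them among the 378) and WT 2483. In slful the same-numbered correlations were 0.0379, 0.148 and 0.0166, and TM replicates 1 and 3 correlated best with another FIM number. These values do not decide whether the number pairs the slful samples. For a gene of 1 kb, the limit that 0 reads allows is 0.0775 to 0.232 RPKM in the slful TM and FIM libraries. Where a library had 0 reads, levels under that limit could have been missed, while single reads gave lower values in some libraries.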
